A study of Mus musculus with 8 samples.

Results

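Ischemia-reperfusion injury was examined within the G9a knockout kidney, by setting the 2 KO_IR libraries against the 2 KO libraries across all genes. These are 4 of the 8 libraries of the series, chosen by their labels and not by any measured value. KO_IR kidneys came from adult male C57BL/6 mice with a kidney-specific knockout of G9a (gene Ehmt2), in which the vessels of the left kidney had been occluded for 45 min, and which were killed on day 3 of reperfusion. KO kidneys came from mice of the same knockout, sex, strain and age class without that injury. The WT_IR and WT libraries, 2 of each, are age-matched wild-type mice handled the same way, and here they share the estimate of spread and serve to test where the 2 genotypes responded differently. Each library pools RNA from 3 mice, so that differences between single mice cannot be seen. The labels do not say which promoter drives the deletion, which exons are lost, or whether the KO and WT libraries are uninjured contralateral kidneys or kidneys of unoperated mice.

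G9a is a lysine methyltransferase that places mono- and dimethyl marks on lysine 9 of histone H3, marks that go with silenced genes. Clamping the renal pedicle starves the tubules of oxygen, and reperfusion then injures above all the proximal tubule, which lives on oxidative metabolism. In the days that follow, surviving tubule cells lose differentiated functions and divide, macrophages enter, and fibroblasts lay down collagen.

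The targeted gene was checked first. Ehmt2 (ENSMUSG00000013787, GRCm38 chromosome 17, 34898469 to 34914052) had 27.3 and 26.3 FPKM in the KO_IR libraries, 28.1 and 26.4 FPKM in KO, 34.5 and 35.8 FPKM in WT_IR and 33.4 and 30.3 FPKM in WT. FPKM count fragments per kilobase of a gene, corrected for library size. All 4 knockout libraries lay below all 4 wild-type libraries, but most of the transcript remained, and a gene total says little about exons lost in some cells of a whole kidney. The libraries were deep and even, with 15158055 to 17473404 fragments assigned to genes in the KO_IR and KO libraries. The KO_IR and KO libraries carried kidney markers at high levels: Slc34a1, the sodium-phosphate cotransporter of the proximal tubule, had 1255 and 1247 FPKM in KO_IR and 1335 and 1358 FPKM in KO. Adrenal markers summed to at most 1.63 FPKM and adipose markers to at most 0.32 FPKM in any of these libraries, with Cyp11b1, Cyp11b2, Th and Dbh at 0. In such bulk tissue, more cells of a type and more RNA per cell cannot be told apart.

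Of 15607 genes tested, 148 were higher in KO_IR (0.948% of the genes tested) and 12 were lower (0.0769%), by limma on log2(FPKM + 1) with a Benjamini-Hochberg adjusted p under 0.05. These genes are said below to have risen or fallen, and all 160 had KO_IR and KO libraries that did not overlap. The risers were led by collagens, complement, macrophage genes, tubular injury genes and mitotic genes, with a median log2 change of 1.04, against -0.02 over all genes tested. Their changes ran between 0.56 and 3.17, and 85 rose by at least 2-fold. The falls numbered 9 protein-coding genes and 3 others, 7 of them at least 2-fold. At an unadjusted p under 0.05, 1251 genes were higher (8.02%) and 740 lower (4.74%). Both KO_IR libraries lay above both KO libraries for 20.2% of the genes and below both for 23.2%. A second method, voom on the fragments recovered from the FPKM, called 284 genes higher (1.82%) and 30 lower (0.192%), and 147 of the 160 were among them. These shares over all genes are the background for the counts of list members given below.

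**Figure D1:**
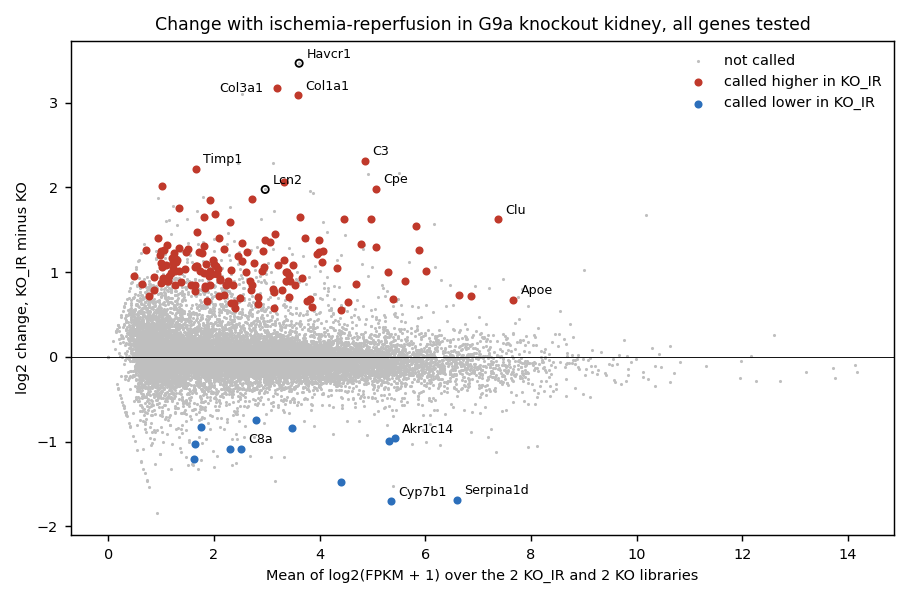
Each point is a gene, by its mean log2(FPKM + 1) over the 2 KO_IR and 2 KO libraries and its log2 change, KO_IR minus KO; red genes were called higher (148), blue genes lower (12), and grey genes were not called. Col3a1 and Col1a1 stand at the top of the called genes, while the injury markers Havcr1 and Lcn2 (open circles) had large changes but were not called.

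The calls lean on single libraries, for WT_IR and WT only through the shared estimate of spread. Those libraries do not enter the change between KO and KO_IR, which stayed the same without any one of them. No gene was called in either direction when KO_IR replicate 1, WT_IR replicate 1 or WT_IR replicate 2 was left out, with smallest adjusted p-values of 0.0542, 0.0541 and 0.0533 and with 1879, 1825 and 1829 genes at an unadjusted p under 0.05. Without KO replicate 1, 5 genes rose and none fell, without KO replicate 2, 104 rose and 5 fell, and without KO_IR replicate 2, 88 rose and 9 fell. Without WT replicate 1 the counts were 74 and 8, and without WT replicate 2 they were 71 and 8. In each of these fits all 160 genes kept their sign. Each count of list members that rose or fell given below, by limma's adjusted test of KO_IR against KO over all libraries, is therefore 0 without any one of the first 3 libraries named.

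Within the groups, the 2 libraries differed on known gene programmes, most of all for immediate early genes in KO_IR. KO_IR replicate 1 was high for immediate early genes, the transcripts that cells switch on within minutes of a stimulus: the 21 genes of that list summed to 780 FPKM in KO_IR replicate 1 and 166 FPKM in KO_IR replicate 2, against 144 and 139 FPKM in KO. Atf3, a stress-induced transcription factor, had 60.2 and 3.72 FPKM in KO_IR and 0.669 and 1.36 FPKM in KO. Fos, which forms the AP-1 factor with Jun, had 15.5 and 1.66 FPKM in KO_IR and 0.554 and 1.06 FPKM in KO. So 1 KO_IR library held nearly all of the difference in these sums, though for 11 of the 18 tested genes both KO_IR libraries lay above both KO libraries. That held for 20.2% of all genes tested. In wild type both injured libraries were high, with sums of 415 and 434 FPKM in WT_IR and 164 and 131 FPKM in WT. None of the 18 tested members was called (8 at an unadjusted p under 0.05, 1 by voom), and their median log2 change was 1.12, and 0.29 without KO_IR replicate 1. Without KO_IR replicate 2, 11 of them were called higher.

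**Figure D2:**
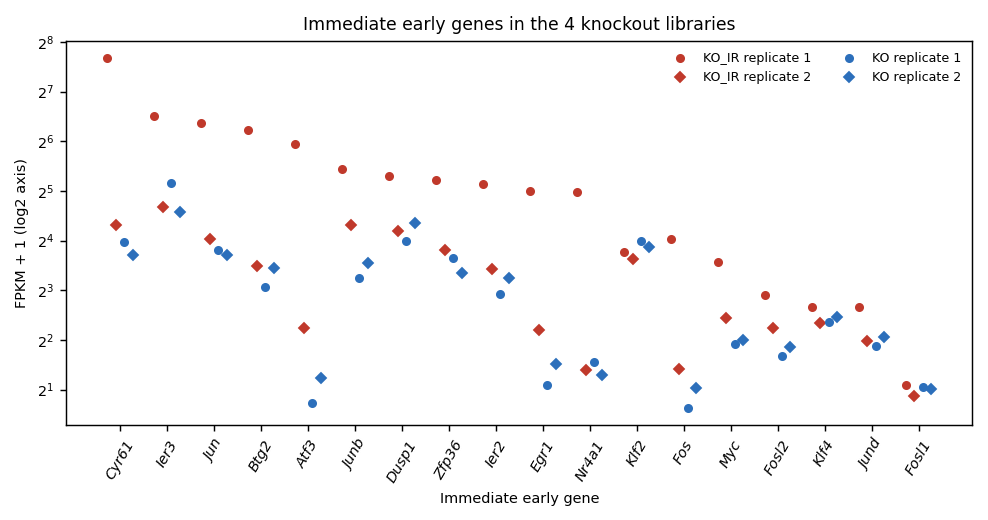
FPKM + 1 of the 18 tested immediate early genes on a log2 axis, in each of the 2 KO_IR (red) and 2 KO (blue) libraries, with circles for replicate 1 and diamonds for replicate 2. Red circles lie far above the other 3 symbols for genes such as Cyr61, Atf3, Egr1 and Nr4a1, which had 30.5 FPKM in KO_IR replicate 1 and 1.64 FPKM in KO_IR replicate 2.

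KO replicate 2 was the library of its group with more injury transcripts. For tubular injury genes, the median of KO replicate 1 minus KO replicate 2 was -0.38 on the log2 scale. The difference was not particular to injury genes. It was -0.45 for antigen presentation, -0.47 for red blood cells and -0.50 for the 3 tested B cell genes. For other lists it lay above 0, as for fatty acid oxidation (0.19) and the distal convoluted tubule (0.22). Havcr1, which encodes the injury marker KIM-1, had 33.1 and 47.3 FPKM in KO_IR and 0.593 and 7.50 FPKM in KO, and Krt19, a keratin of ducts and injured tubules, had 7.76 and 7.57 FPKM in KO_IR and 0.665 and 4.10 FPKM in KO. The groups did not overlap for either gene, yet the 2 KO libraries lay far apart. Neither passed the test, at log2 changes of 3.46 ± 0.67 (SE, adjusted p = 0.0706) and 1.57 ± 0.49 (adjusted p = 0.238).

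Among 29 tested genes of tubular injury and dedifferentiation, 7 rose and none fell, where 0.948% of all genes tested rose. For 26 of the 29 both KO_IR libraries lay above both KO libraries, where 20.2% of all genes did. The median log2 change was 0.90. Aldh1a2, which makes retinoic acid from retinal, had the smallest p of all genes: 7.11 and 8.12 FPKM in KO_IR, against 1.88 and 1.82 FPKM in KO, a log2 change of 1.60 ± 0.09 (adjusted p = 0.00752). Its libraries agreed closely within each group. Clu, which encodes the secreted chaperone clusterin, had 240 and 354 FPKM in KO_IR and 79.0 and 112 FPKM in KO (1.62 ± 0.23, adjusted p = 0.0312). Vcam1, an adhesion molecule for leukocytes, had 5.94 and 6.46 FPKM in KO_IR and 0.564 and 1.54 FPKM in KO (1.85 ± 0.22, adjusted p = 0.0201). Krt20, a keratin of injured tubules, was 9.75 times as high in KO_IR by group means, at 4.75 and 2.79 FPKM, against 0.320 and 0.453 FPKM in KO. Cd44, the hyaluronan receptor, Anxa3, a calcium-dependent membrane-binding protein, and Vim, the mesenchymal filament vimentin, made up the rest of the risers. Without KO replicate 2, the less quiet of the 2 KO libraries, 11 of the 29 rose, and without KO replicate 1, 1 did.

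Lcn2, which encodes the iron-scavenging injury marker NGAL, had 11.1 and 19.0 FPKM in KO_IR and 1.54 and 5.13 FPKM in KO. The groups did not overlap, but the change of 1.97 ± 0.41 missed the threshold (adjusted p = 0.0868, and 0.0316 by voom). Spp1, which encodes the secreted matrix protein osteopontin, had 1727 and 2485 FPKM in KO_IR and 499 and 845 FPKM in KO (1.67 ± 0.28, adjusted p = 0.0506). Sox9, a transcription factor of regenerating tubule cells, stayed low, at 0.742 and 0.899 FPKM in KO_IR and 0.232 and 0.588 FPKM in KO. In WT_IR it reached 13.2 and 16.3 FPKM, against 0.254 and 0.516 FPKM in WT, and the 2 responses differed by -3.13 on the log2 scale (interaction, adjusted p = 0.00325).

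Fibrillar collagen showed the steepest rises. Of 21 tested collagen chains 8 rose and none fell, where 0.948% of all genes tested rose. The list's median log2 change was 0.83. Col1a1, which encodes a chain of type I collagen, had 36.0 and 32.7 FPKM in KO_IR and 2.28 and 4.27 FPKM in KO, a change of 3.09 ± 0.22 (adjusted p = 0.0143). Col3a1, the chain of type III collagen, had 24.99 and 28.07 FPKM in KO_IR and 1.22 and 3.22 FPKM in KO (3.17 ± 0.27, adjusted p = 0.0143). Both were over 10 times as high in KO_IR by group means (10.5 and 12.0 times). Col1a2 rose too, at 20.4 and 18.7 FPKM in KO_IR and 2.99 and 5.09 FPKM in KO. The other risers were Col5a1, a chain of the fibril-forming type V collagen, Col6a1 and Col6a2, chains of the microfibrils of type VI collagen, and Col4a1 and Col4a2 of the general basement membrane, with Col4a1 at 69.9 and 61.5 FPKM in KO_IR and 32.3 and 37.7 FPKM in KO. Col4a3 and Col4a4, chains of the glomerular basement membrane, did not pass the test (-0.33 and -0.25). Without KO replicate 1, 3 of the collagen chains rose, and without KO replicate 2, 6 did.

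Genes that accompany collagen moved the same way in part, where 0.948% of all genes tested rose. Of 29 other matrix proteins 5 rose (Fn1, Tgfbi, Emilin1, Fbn1 and Sparc), and the list's median was 0.81. Fn1, which encodes fibronectin, had 10.7 and 12.4 FPKM in KO_IR and 1.79 and 3.24 FPKM in KO (1.86 ± 0.21, adjusted p = 0.0174). Of 23 proteases and inhibitors 3 rose (Timp1, Ctsk and Ctss, median 0.53). Timp1, the inhibitor of matrix metalloproteinases, had 5.38 and 6.21 FPKM in KO_IR and 0.154 and 0.843 FPKM in KO. Its KO levels lie near the limit of detection, since 3 fragments on a gene of 1 kb make 0.187 to 0.206 FPKM in KO, a floor that covers counting error only. Of 22 genes of collagen processing 3 rose (Adamts2, Loxl1 and Loxl2, median 0.19), and of 21 contractile genes 3 rose (Pdgfrb, Tpm4 and Cnn2, median 0.56). Acta2, the smooth-muscle actin of myofibroblasts, had 68.7 and 26.8 FPKM in KO_IR and 13.7 and 21.4 FPKM in KO, and did not pass (1.28 ± 0.45, adjusted p = 0.298). Fibroblast and pericyte markers summed to 106 and 109 FPKM in KO_IR and 44.5 and 52.1 FPKM in KO, and 2 of the 10 tested (Col1a1 and Pdgfrb) rose. Both are counted in the lists above too. Without Col1a1 the sums were 69.7 and 76.0 FPKM in KO_IR and 42.2 and 47.8 FPKM in KO. None of 22 genes of TGF-beta and PDGF signalling was called (4 higher at an unadjusted p under 0.05, 1 by voom), with Tgfb1 at 5.41 and 5.49 FPKM in KO_IR and 2.23 and 3.51 FPKM in KO (adjusted p = 0.0826).

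**Figure D3:**
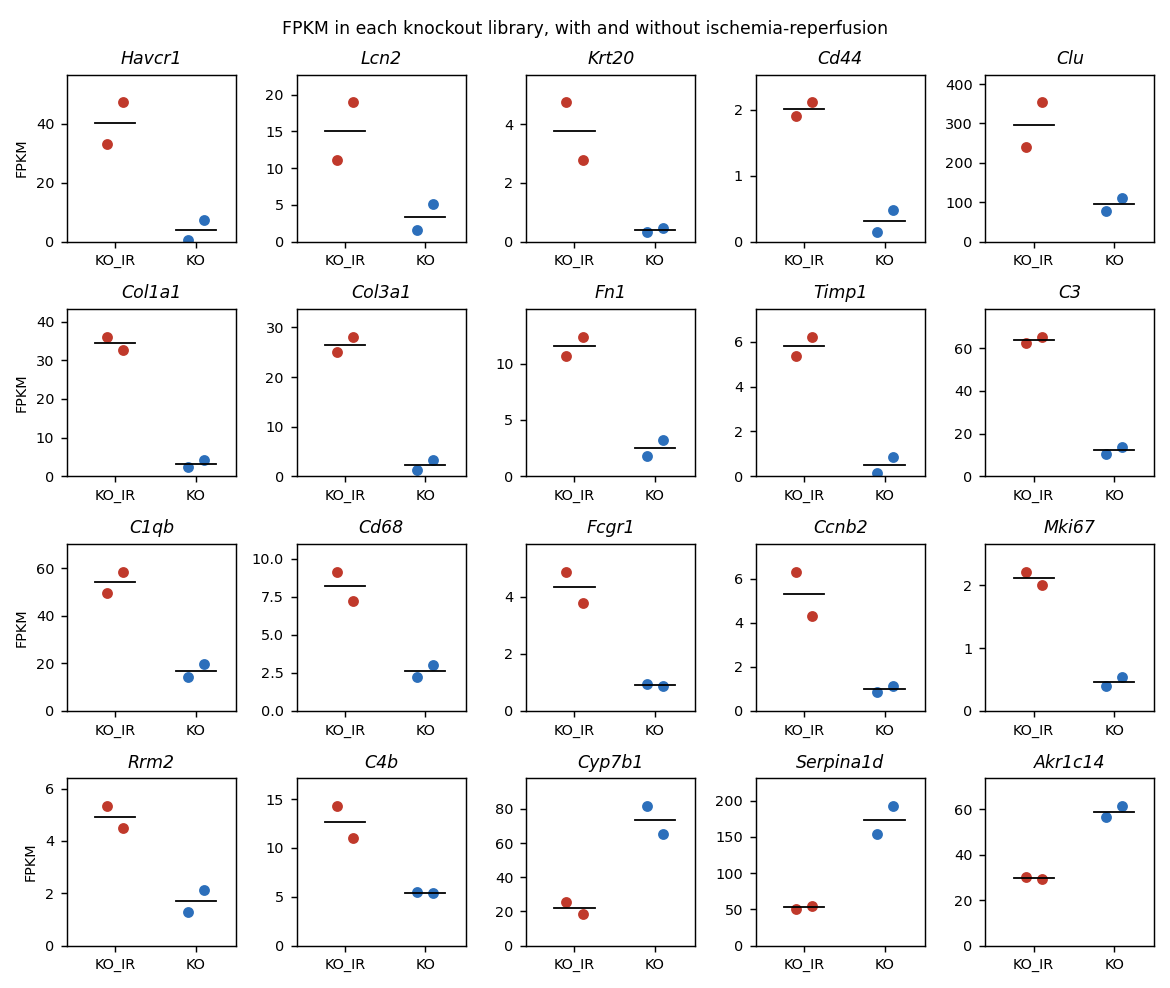
FPKM of 20 genes in each KO_IR library (red, left) and each KO library (blue, right), with replicate 1 left of replicate 2 and a bar at the group mean; each panel has its own axis from 0. The groups do not overlap in any panel, as for all 160 called genes, from which all panels but Havcr1 and Lcn2 were taken. For Havcr1 and Lcn2, which were not called, the 2 KO libraries lie apart.

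Macrophage genes rose together. Of 14 tested markers 9 rose and none fell, where 0.948% of all genes tested rose. All 14 had both KO_IR libraries above both KO libraries, where 20.2% of all genes did. The median log2 change of 1.29 was the highest of any list. The 15 markers summed to 266 and 330 FPKM in KO_IR and 80.3 and 121 FPKM in KO. Cd68, a lysosomal membrane protein of phagocytes, had 9.15 and 7.24 FPKM in KO_IR and 2.24 and 3.03 FPKM in KO (1.34 ± 0.15, adjusted p = 0.0174). Fcgr1, the high-affinity receptor for IgG, had 4.88 and 3.79 FPKM in KO_IR and 0.953 and 0.867 FPKM in KO (1.47 ± 0.12, adjusted p = 0.0143). Csf1r, the receptor that macrophages need to survive, did not pass the test, at 17.3 and 18.3 FPKM in KO_IR and 12.8 and 16.2 FPKM in KO (adjusted p = 0.466). Lyz2, which encodes lysozyme, had 70.4 and 127 FPKM in KO_IR and 13.3 and 30.7 FPKM in KO and missed the threshold (adjusted p = 0.0706). Of the 14 markers 8 rose without KO replicate 2 and 0 without KO replicate 1.

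Of 19 complement genes 7 rose and 1 fell, where 0.948% of all genes tested rose and 0.0769% fell. The list's median was 0.95. C3, on which all complement pathways converge, had 62.4 and 65.2 FPKM in KO_IR and 10.4 and 13.9 FPKM in KO (2.31 ± 0.25, adjusted p = 0.0174). C1qb, a chain of the C1q recognition complex, had 49.7 and 58.5 FPKM in KO_IR and 14.2 and 19.7 FPKM in KO (1.63 ± 0.15, adjusted p = 0.0143). C3ar1, the receptor for the fragment C3a, had 2.38 and 2.49 FPKM in KO_IR and 0.557 and 0.623 FPKM in KO (1.11 ± 0.10, adjusted p = 0.0143). C1qa, C1qc, Cfp (properdin) and C4b rose as well, and the 3 C1q genes stand in the macrophage list too. The terminal component C8a fell. Without KO replicate 1 no complement gene was called, and without KO replicate 2, 6 rose and 1 fell.

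The promoters of C1qb and C3ar1, the called complement genes with the smallest p that have an entry, are shown because complement had the largest share of called genes among the lists of collagen chains, complement, mitosis and DNA replication. Each window runs from 250 bases before to 50 bases after the start given by RefSeq (GRCm38.p6), read 5′ to 3′ on the gene's own strand, with capitals at GAGGAA, a purine-rich ETS core like that bound by the myeloid factor PU.1. C1qb lies on the minus strand at chr4:136886151-136886450 and C3ar1 on the minus strand at chr6:122856108-122856407.
C1qb: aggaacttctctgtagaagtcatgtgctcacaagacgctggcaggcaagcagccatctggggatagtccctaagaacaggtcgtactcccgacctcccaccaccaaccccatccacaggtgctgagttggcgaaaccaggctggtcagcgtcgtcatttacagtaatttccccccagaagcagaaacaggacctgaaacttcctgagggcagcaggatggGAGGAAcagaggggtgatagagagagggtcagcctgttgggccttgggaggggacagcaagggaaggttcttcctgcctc
C3ar1: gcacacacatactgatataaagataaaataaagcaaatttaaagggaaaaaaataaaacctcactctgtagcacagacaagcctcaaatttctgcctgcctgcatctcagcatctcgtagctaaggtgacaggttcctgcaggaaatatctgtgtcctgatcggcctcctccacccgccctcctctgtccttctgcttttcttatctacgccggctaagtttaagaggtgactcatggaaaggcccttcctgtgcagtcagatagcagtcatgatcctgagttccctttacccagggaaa
GAGGAA was found once in the C1qb window, 30 bases before the start, and on neither strand of the C3ar1 window. Searched on both strands, 28.3% of 32851 promoters in the table hold it, and 3 of the 6 called complement genes with an entry do. These matches are letters in a window and say nothing of binding.

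Genes of the lysosome and phagocytosis split: 7 of 31 rose (Tyrobp, Fcgr1, Fcgr4, Cd68, Axl, Ctss and Fcer1g), where 0.948% of all genes tested did. The list's median was 0.08, close to that of all genes. Tyrobp, a signalling adaptor of myeloid receptors, had 23.4 and 26.2 FPKM in KO_IR and 9.77 and 9.91 FPKM in KO. Ctss, the cathepsin that trims antigens, had 48.0 and 37.6 FPKM in KO_IR and 15.5 and 17.0 FPKM in KO. Of those that rose, Cd68 and Fcgr1 stand in the macrophage list too and Ctss among the proteases. The bulk of the lysosomal list did not pass the test.

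Of 24 chemokines and receptors 4 rose (Ccr2, Cx3cr1, Ccl6 and Ccl9), where 0.948% of all genes tested did. The list's median was 0.64. Ccr2, the receptor that draws monocytes from blood, had 2.06 and 3.11 FPKM in KO_IR and 0.487 and 0.655 FPKM in KO (1.18 ± 0.18, adjusted p = 0.0424). Its ligand Ccl2 had 3.47 and 2.59 FPKM in KO_IR and 0.422 and 0.986 FPKM in KO and missed the threshold (adjusted p = 0.0554). Of 25 cytokine and NF-kB genes 4 rose (Socs3, Vcam1, Il34 and Relb, median 0.51), with Vcam1 counted among the tubular injury genes too. Socs3, an inhibitor of cytokine signalling that STAT3 induces, had 6.37 and 5.52 FPKM in KO_IR and 1.38 and 1.92 FPKM in KO (1.40 ± 0.13, adjusted p = 0.0143).

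Of 26 interferon-stimulated genes 6 rose (Zbp1, Oas1a, Irf7, Gbp3, Bst2 and Oasl2), 23 were higher at an unadjusted p under 0.05, and the median was 0.59. Of all genes tested 0.948% rose and 8.02% were higher unadjusted. Irf7, the factor that amplifies type I interferon, had 36.3 and 31.0 FPKM in KO_IR and 19.8 and 16.6 FPKM in KO (0.85 ± 0.12, adjusted p = 0.0312). Oas1a belongs to a cluster of close copies, so its share of their reads is uncertain. Of 19 genes of antigen presentation 1 rose, Psmb10, a subunit of the immunoproteasome; all 19 had positive changes (median 0.68) and 15 passed an unadjusted p of 0.05. Class II genes varied within the groups, with Cd74, the invariant chain, at 184 and 323 FPKM in KO_IR and 102 and 162 FPKM in KO (adjusted p = 0.309). None of the interferon genes was called without KO replicate 2 or without KO replicate 1.

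No marker of other leukocytes was called. Neutrophil markers summed to 5.25 and 4.67 FPKM in KO_IR and 5.16 and 6.54 FPKM in KO, with Mpo and Elane, which fill neutrophil granules, at 0 in all 4. Markers of T and NK cells summed to 9.44 and 15.6 FPKM in KO_IR and 4.38 and 7.12 FPKM in KO. All 9 tested had positive changes, with a median of 0.45. For 6 of the 9 both KO_IR libraries lay above both KO libraries, where 20.2% of all genes did. None of the 9 was called (4 higher at an unadjusted p under 0.05, 0 by voom). None of 3 tested B cell genes was called either (1 higher unadjusted, 0 by voom), nor any of 14 endothelial markers (1 higher and 2 lower unadjusted, 0 by voom) or 10 podocyte markers (2 lower unadjusted, 0 by voom). Red blood cell genes lay lower, summing to 192 and 220 FPKM in KO_IR and 268 and 389 FPKM in KO. Of these genes 3 of 6 were lower at an unadjusted p under 0.05 and none was called by limma or voom. At that unadjusted threshold 8.02% of all genes tested were higher and 4.74% lower.

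Genes of mitosis lay higher throughout. All 35 tested genes of mitosis had both KO_IR libraries above both KO libraries, where 20.2% of all genes did. Of the 35, 31 passed an unadjusted p of 0.05, 9 rose by the adjusted test and 16 by voom, with a median log2 change of 0.62. Of all genes tested 8.02% were higher unadjusted, 0.948% rose and voom called 1.82% higher. Ccnb2, a B-type cyclin that drives entry into mitosis, had 6.32 and 4.31 FPKM in KO_IR and 0.851 and 1.14 FPKM in KO (1.65 ± 0.16, adjusted p = 0.0143). Mki67, the proliferation marker Ki-67, had 2.22 and 2.01 FPKM in KO_IR and 0.395 and 0.533 FPKM in KO (1.09 ± 0.11, adjusted p = 0.0174). Ube2c, which works with the anaphase-promoting complex, had 2.86 and 2.42 FPKM in KO_IR and 0.501 and 0.600 FPKM in KO, 4.79 times as high by group means. Top2a, which untangles chromosomes, Tpx2 and Tacc3, which build the spindle, Plk1, Birc5 and Bub1b were the other risers. Because these transcripts are scarce, the pseudocount of 1 FPKM shrinks their changes: with a pseudocount of 0.1 the median of the list was 1.47.

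The KO baseline for these genes was low. Summed over the 39 mitosis genes, levels were 107 and 87.3 FPKM in KO_IR and 53 and 52.9 FPKM in KO, beside 180 and 192 FPKM in WT_IR and 94.7 and 107 FPKM in WT. Cks2, a small subunit that binds cyclin-dependent kinases, made up much of these sums, with 45.4 and 40.4 FPKM in KO_IR and 36.5 and 34.2 FPKM in KO. The other 38 genes summed to 61.7 and 47.0 FPKM in KO_IR and 16.5 and 18.7 FPKM in KO, beside 149 and 159 FPKM in WT_IR and 48.5 and 55.6 FPKM in WT. By group means the KO_IR sum was 1.84 times that of KO with Cks2 and 3.08 times without it. With or without Cks2, the KO_IR sums lay near those of WT kidneys without injury. Without KO replicate 2, 4 mitosis genes rose, without KO_IR replicate 2, 7 did, and without KO replicate 1, 0 did. Of 29 DNA replication genes only Rrm2 was called, and the median was 0.17. Pcna, the sliding clamp of the replication fork, had 18.5 and 15.1 FPKM in KO_IR and 14.2 and 13.7 FPKM in KO (adjusted p = 0.391). None of 23 G1 regulators was called (4 higher and 1 lower at an unadjusted p under 0.05, 1 higher by voom).

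Promoters of Ccnb2 and Ube2c are shown, chosen after their values were seen, because genes of G2 and mitosis are known to carry CCAAT boxes, bound by NF-Y, and the CHR element TTTGAA, at which the DREAM complex holds cell cycle genes silent in resting cells. Capitals mark CCAAT and TTTGAA on either strand (ATTGG and TTCAAA on the other strand). Ccnb2 lies on the minus strand at chr9:70421505-70421804 and Ube2c on the plus strand at chr2:164769679-164769978, in GRCm38.p6 by RefSeq.
Ccnb2: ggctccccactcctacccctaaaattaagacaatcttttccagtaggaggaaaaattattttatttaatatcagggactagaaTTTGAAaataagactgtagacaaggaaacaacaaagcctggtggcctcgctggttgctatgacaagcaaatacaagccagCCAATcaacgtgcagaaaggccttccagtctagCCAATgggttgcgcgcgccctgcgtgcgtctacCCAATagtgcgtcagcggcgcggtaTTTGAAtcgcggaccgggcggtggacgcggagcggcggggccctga
Ube2c: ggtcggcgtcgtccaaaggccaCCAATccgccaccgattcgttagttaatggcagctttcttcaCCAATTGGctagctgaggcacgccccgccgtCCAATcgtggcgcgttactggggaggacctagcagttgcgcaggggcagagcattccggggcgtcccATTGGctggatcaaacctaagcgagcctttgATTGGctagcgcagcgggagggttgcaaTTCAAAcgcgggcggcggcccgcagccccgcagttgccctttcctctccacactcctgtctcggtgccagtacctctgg
The Ccnb2 window holds CCAAT at 87, 54 and 21 bases before the start, all in the same orientation, and TTTGAA at 167 before and at 4 after it. In the Ube2c window CCAAT occurs 3 times in each orientation, with 2 of the matches overlapping at CCAATTGG, and TTTGAA occurs once in the reverse orientation, 29 bases before the start. Of the 8 called mitosis genes with an entry, 6 hold CCAAT and 6 hold TTTGAA, where 37.4% and 17.9% of all 32851 promoters do. The match is a description of these letters, not of occupancy.

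**Figure D4:**
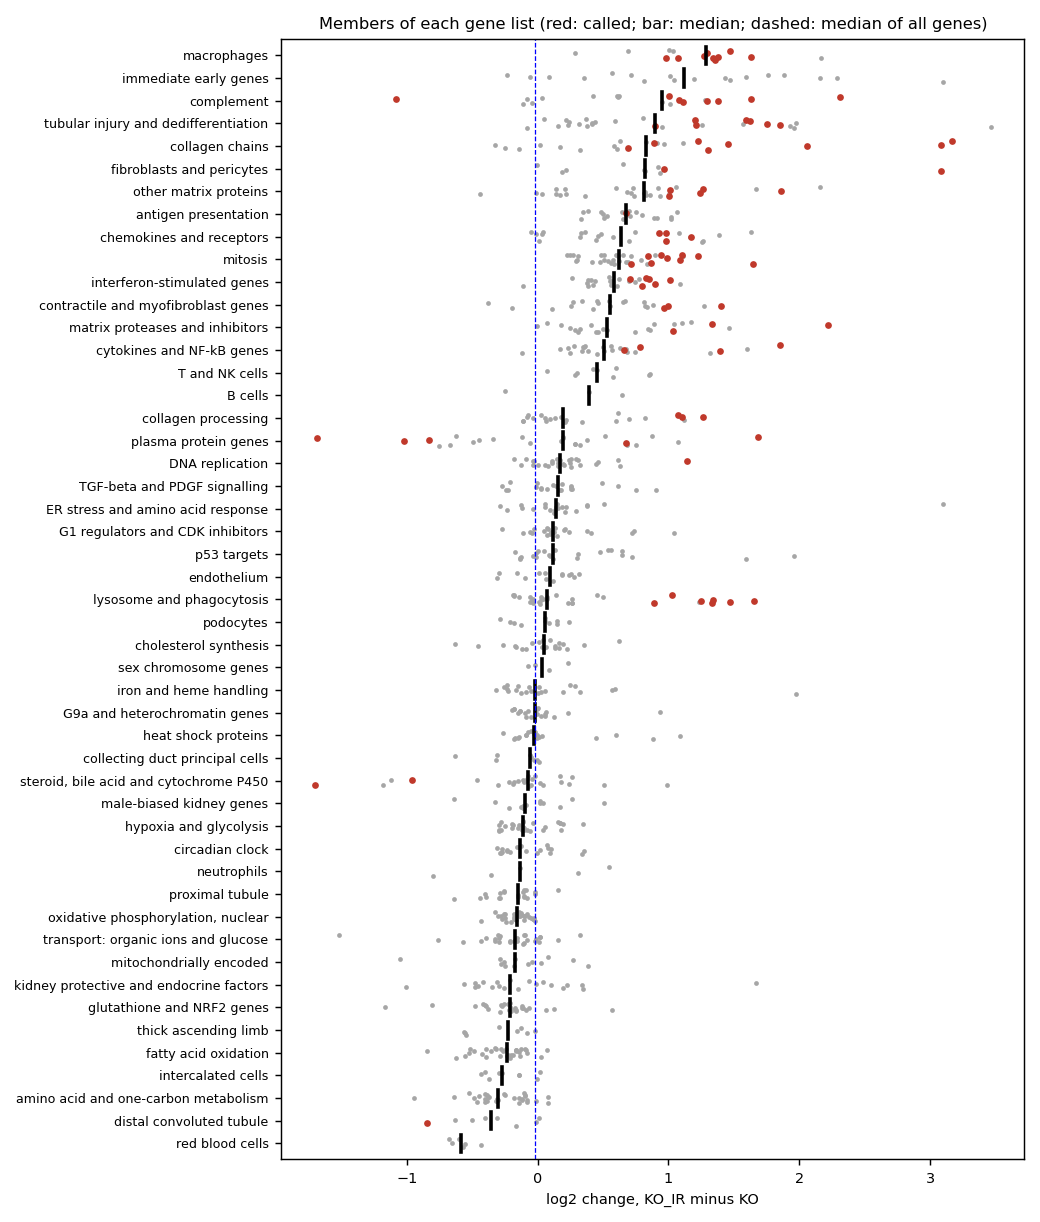
Log2 change, KO_IR minus KO, of each tested member of each gene list, one row per list in order of the median (black bar), with called genes in red, other genes in grey and a dashed line at the median of all genes tested. Macrophage, immediate early, complement and tubular injury genes lie at the top, with medians of 1.29, 1.12, 0.95 and 0.90, and all mitosis genes lie right of 0.

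Few genes fell. Cyp7b1, a hydroxylase of oxysterols and of steroids, had 25.7 and 18.3 FPKM in KO_IR and 81.5 and 65.1 FPKM in KO, a change of -1.70 ± 0.26 (adjusted p = 0.0422). Serpina1d, one of several close copies of the antitrypsin gene, had 51.0 and 54.6 FPKM in KO_IR and 154 and 192 FPKM in KO (-1.69 ± 0.24, adjusted p = 0.0318). How reads were shared among its copies is not given in the sources used here, so this value is uncertain. Akr1c14, an aldo-keto reductase of steroids, was the fall with the smallest p: 30.2 and 29.5 FPKM in KO_IR, against 56.5 and 61.3 FPKM in KO (-0.96 ± 0.08, adjusted p = 0.0143). Mettl7a2, which has a close neighbour copy, had 26.98 and 27.28 FPKM in KO_IR and 52.0 and 57.8 FPKM in KO. Pvalb, the calcium buffer of the distal convoluted tubule, had 6.35 and 8.43 FPKM in KO_IR and 13.0 and 14.9 FPKM in KO (-0.84 ± 0.14, adjusted p = 0.0489). The 3 non-coding falls were Rpl30-ps10, Mir5107 and Gm14257. The other protein-coding falls were Alb (albumin), Itih2, C8a and Sec14l3, all under 8 FPKM in every one of these libraries. None of the falls was called without KO replicate 1, and 5 genes were without KO replicate 2.

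The falls belong to no one list. Of 26 genes of steroid, bile acid and cytochrome P450 metabolism 2 fell (median -0.08), and of 8 distal convoluted tubule genes 1 fell (median -0.36). Among 25 plasma protein genes 3 fell (Serpina1d, Itih2 and Alb) and 2 rose. The 2 were Apoe, which carries lipids and is made by macrophages among others, with 253 and 258 FPKM in KO_IR and 153 and 166 FPKM in KO (0.67 ± 0.09, adjusted p = 0.0290), and Serpina10, with 5.11 and 7.53 FPKM in KO_IR and 0.706 and 1.96 FPKM in KO.

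Few genes of differentiated tubule functions were called. None of 20 proximal tubule markers was called (0 higher and 4 lower at an unadjusted p under 0.05, 0 by voom). Of all genes tested 4.74% were lower at that threshold. The median of the 20 markers was -0.15, and 19 of 20 changes were negative. For 11 of the 20, both KO_IR libraries lay below both KO libraries, where 23.2% of all genes did. Slc5a2, the glucose carrier SGLT2, had 190 and 165 FPKM in KO_IR and 201 and 180 FPKM in KO (-0.11 ± 0.12, adjusted p = 0.786), and the groups overlapped. Slc7a13, an amino acid carrier of the late proximal tubule, had 181 and 106 FPKM in KO_IR and 239 and 198 FPKM in KO (-0.64 ± 0.25, adjusted p = 0.347). The thick ascending limb (8 genes, median -0.22), the intercalated cells (9 genes, -0.27) and the principal cells of the collecting duct (8 genes, -0.06) had no called gene, and 2, 1 and 0 lower at an unadjusted p under 0.05, with 0 by voom. Egf, a growth factor made in the distal tubule, had 170 and 188 FPKM in KO_IR and 228 and 262 FPKM in KO (adjusted p = 0.349). Kl, the kidney-made hormone klotho, had 69.6 and 74.8 FPKM in KO_IR and 85.2 and 87.7 FPKM in KO (-0.26 ± 0.19, adjusted p = 0.648).

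The lists of oxidative phosphorylation, amino acid metabolism and fatty acid oxidation stood slightly below 0. All 33 nuclear genes of oxidative phosphorylation had negative changes, with a median of -0.16 against -0.02 for all genes; none was called, 5 were lower at an unadjusted p under 0.05 and voom called 0. Both KO_IR libraries lay below both KO libraries for 19 of these 33 genes, where they did for 23.2% of all genes. They also did for 20 of 31 genes of amino acid metabolism and for 14 of 32 genes of fatty acid oxidation. Ndufa10, a subunit of complex I, had 55.8 and 54.4 FPKM in KO_IR and 66.2 and 72.7 FPKM in KO (-0.33 ± 0.10, adjusted p = 0.198). For 31 genes of amino acid metabolism the median was -0.30, with 8 lower at an unadjusted p under 0.05. For 32 genes of fatty acid oxidation it was -0.24, with 7 lower. Of all genes tested 4.74% were lower at that threshold. Acox3, a peroxisomal oxidase of branched fatty acids, had 24.1 and 22.8 FPKM in KO_IR and 32.57 and 29.99 FPKM in KO (-0.40 ± 0.08, adjusted p = 0.0741). Neither list had a call by limma or voom. Slc22a7, an organic anion carrier, had the most negative change of 28 transporter genes, none of them called by limma, at 19.7 and 28.3 FPKM in KO_IR and 48.3 and 100 FPKM in KO (-1.52 ± 0.36, adjusted p = 0.122), and it was called by voom (adjusted p = 0.0375), as was its relative Slc22a19.

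The remaining lists held no called gene. Their medians were 0.14 for 21 genes of ER stress and amino acid response, 0.12 for 23 p53 targets, 0.05 for 22 of cholesterol synthesis, -0.02 for 22 of iron and heme handling, -0.02 for 22 of G9a and heterochromatin and -0.03 for 19 heat shock proteins. They were -0.09 for 14 male-biased kidney genes, -0.11 for 28 of hypoxia and glycolysis, -0.13 for 20 clock genes, -0.17 for 13 mitochondrially encoded genes and -0.21 for both 28 glutathione genes and 21 kidney protective factors. The 4 sex chromosome genes had a median of 0.03. In these lists limma's unadjusted p was under 0.05 for at most 4 genes higher and at most 6 lower in any one, and voom called at most 2. Hspb1, a small heat shock protein, came close, with 44.1 and 35.4 FPKM in KO_IR and 14.6 and 22.1 FPKM in KO (1.09 ± 0.19, adjusted p = 0.0545). Uhrf1, which binds methylated lysine 9 of histone H3, led the heterochromatin list, with 1.94 and 2.06 FPKM in KO_IR and 0.338 and 0.834 FPKM in KO (adjusted p = 0.109).

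The response within the knockout was then tested against that of wild type by the interaction of the 4 groups. The KO response was higher than the WT response for 1502 genes (9.62%) and lower for 1042 (6.68%). Of the 148 genes that rose in KO_IR, 143 also rose in WT_IR, with a median log2 change of 1.04 in KO and 2.08 in WT. The KO rise was the smaller for 115 of them by this test and the larger for 5 (C4b, Rrm2, Gm22806, Gm19810 and a gene model with no symbol), and the test was not passed for 28. Of the 12 falls 10 were shared with WT, and 6 had a positive and 2 (Rpl30-ps10 and Mir5107) a negative interaction. The deposited scaling matters here: on a TPM scale the median of all genes moved by -0.34 for the interaction and the counts were 755 higher and 4066 lower, while for KO_IR minus KO the shift was 0.05 and the counts 209 and 13.

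Macrophage genes showed this gap clearly, with a median of 1.29 in KO and 2.76 in WT and a smaller KO response for 12 of 14. C3 differed by -3.16 ± 0.36 (adjusted p = 0.00427): it stood at 62.4 and 65.2 FPKM in KO_IR, while WT_IR libraries had 650 and 579 FPKM, against 9.42 and 17.3 FPKM in WT. For tubular injury genes the medians were 0.90 in KO and 2.14 in WT, with 19 of 29 smaller in KO. Havcr1 reached 344 and 345 FPKM in WT_IR, against 0.828 and 1.23 FPKM in WT, and its responses differed by -3.95 ± 0.94 (adjusted p = 0.0320). On the TPM scale all 14 macrophage genes had the smaller response in KO, but there 4066 of all 15607 genes did too.

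Metabolic and tubule genes differed in the other direction. The median of the oxidative phosphorylation genes was -0.16 in KO and -1.32 in WT, and the interaction was positive for 32 of 33 genes, or 31 on the TPM scale. For amino acid metabolism it was positive for 28 of 31, for fatty acid oxidation for 17 of 32 and for proximal tubule markers for 16 of 20, or 13 on the TPM scale. Egf stood at 8.72 and 5.60 FPKM in WT_IR and 172 and 173 FPKM in WT, and the KO response was 3.98 higher on the log2 scale (adjusted p = 0.00234). Kl had 26.2 and 16.5 FPKM in WT_IR and 79.4 and 75.3 FPKM in WT, a difference between the responses of 1.59 ± 0.27 (adjusted p = 0.0105).

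For mitosis genes few interactions passed the test. Their median was 0.62 in KO and 1.00 in WT, and the interaction passed for 3 of 35 genes, positive for Cks2 and negative for Aurkb and Cks1b. Ccnb2 changed by 1.65 in KO and 1.47 in WT, a difference of 0.17 ± 0.23 (adjusted p = 0.652), and Mki67 by 1.09 and 1.39, a difference of -0.30 ± 0.16 (adjusted p = 0.269). These standard errors leave room for a difference either way. The list's median interaction was -0.34 as deposited and -0.68 on the TPM scale, where 23 genes had the smaller response in KO. On the TPM scale the median of all genes tested was -0.34, and 4066 of 15607 had the smaller response in KO. The sign of the list's median depended on the method, since by voom it was 0.21. The list's medians by voom were 1.69 in KO and 1.62 in WT, so the smaller KO median was not seen there.

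**Figure D5:**
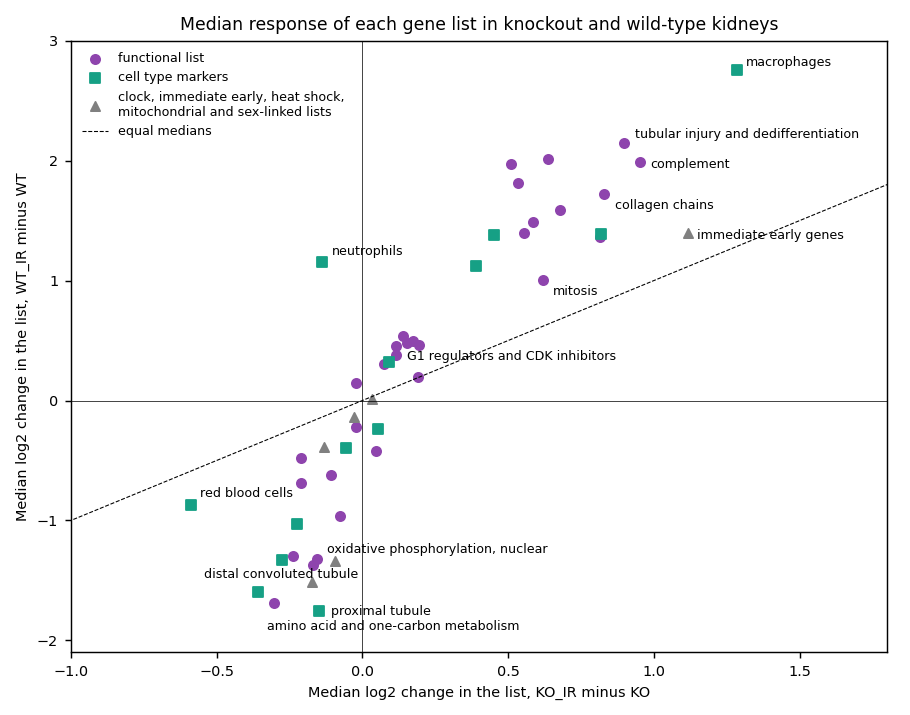
Median log2 change of each gene list in knockout (KO_IR minus KO, horizontal) and in wild type (WT_IR minus WT, vertical), with circles for functional lists, squares for cell type markers, triangles for other lists and a dashed line at equal medians. Macrophage genes lie at 1.29 and 2.76, oxidative phosphorylation genes at -0.16 and -1.32, and mitosis genes at 0.62 and 1.00.

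Called genes that were not called in the same direction in WT numbered 7, of which 2 are named protein-coding genes. C4b, a complement component with a close copy in the same cluster whose reads it may share, had 14.27 and 11.03 FPKM in KO_IR and 5.47 and 5.34 FPKM in KO (1.08 ± 0.14, adjusted p = 0.0290). In wild type it had 18.8 and 16.8 FPKM in WT_IR and 13.0 and 15.9 FPKM in WT, and the KO response was higher by 0.79 ± 0.20 (interaction, adjusted p = 0.0380). Rrm2, the small subunit of the enzyme that makes deoxynucleotides for DNA synthesis, had 5.32 and 4.51 FPKM in KO_IR and 1.29 and 2.12 FPKM in KO (1.15 ± 0.16, adjusted p = 0.0312). In wild type it had 8.43 and 8.03 FPKM in WT_IR and 6.97 and 6.19 FPKM in WT, with an interaction of 0.86 ± 0.22 (adjusted p = 0.0421). For both genes the KO libraries were the lowest of the 8, and KO_IR stayed below WT_IR.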

How the data were processed

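RNA of 8 kidney libraries, each a pool of 3 mice, was selected on poly-T beads, per the labels' protocols. The authors deposited FPKM for 54251 genes. Alignment used HISAT2 2.0.5 and the mm10 (GRCm38.p6) genome, per the submitters' processing notes; the sources used here do not name the counting tool, its strand setting or the annotation release. Group labels were taken from sample titles, since the genotype and treatment fields of the labels are exchanged. Multiplied by gene length, the values of a library fell on whole steps for 100% of genes (tolerance 1e-06), which gave back the fragments. The denominators implied are 0.946 to 1.03 times the fragment total in KO_IR and KO, 1.18 and 1.19 times in WT_IR and 0.921 and 0.932 times in WT, and median-of-ratios factors computed from the deposited FPKM are exactly 1. The deposited values thus already carry that scaling.

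The 15607 genes whose mean reached 0.5 FPKM were fitted in limma 3.58.1 (R 4.3.3) on log2(FPKM + 1), with 1 mean per group over all 8 libraries, a mean-variance trend and Benjamini-Hochberg adjustment at 0.05. This leaves 4 residual degrees of freedom, and the prior adds 3.04. Changes are given with standard errors; they understate the change of low genes. The labels do not say that equal replicate numbers share mice or a day, so no pairing was used. P-values set each change against the spread between the 2 pools of a group, estimated jointly over all 4 groups, WT and WT_IR included.

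The members and the 51 gene lists were chosen with earlier results of these data known. Named were Ehmt2, Havcr1, Lcn2 and Kl; of named protein-coding genes called, with groups apart and at least 2 FPKM in the higher group, the 30 largest rises and up to 12 largest falls; those not called in WT; and up to 6 called genes per list, or the 2 with the smallest p. Other genes named, such as Sox9, Csf1r, Egf and Pcna, and the mitosis promoters were chosen after their values were seen. Alternatives were pseudocounts of 0.1 and 5, no filter, a minimum of 5 FPKM, TPM, median-of-ratios factors, no trend, voom on recovered fragments, a replicate block, a 2-fold minimum, fits on 4 libraries and leaving out libraries.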

Additional observations from a re-analysis of the deposited data

Results flagged for a closer look

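Of 45 genes examined, namely Ehmt2, Havcr1, Lcn2, Kl, the 30 largest rises, the 9 protein-coding falls and the 2 protein-coding genes not called in WT, 35 responded differently in KO and WT by limma's interaction test (adjusted p under 0.05). Over all genes tested the KO response was higher for 9.62% and lower for 6.68%, and most of the 45 were chosen for their change in KO_IR. Values are KO response minus WT response on the log2 scale, and the causes were not tested. Tubular injury genes had the smaller response in KO: Havcr1 (-3.95), Lcn2 (-3.49), Vcam1 (-3.25), Krt20 (-2.82), Aldh1a2 (-2.57) and Clu (-1.88). So did matrix genes and their regulators, with Timp1 at -2.54, Col3a1 at -1.86, Col1a1 at -1.67, Col1a2 at -1.44 and Fn1 at -1.20. Complement and macrophage genes followed, with C3 at -3.16, C1qc at -1.82, Cd68 at -1.81, C1qb at -1.73, C1qa at -1.72, Ctss at -1.72, Ms4a6d at -1.49, Mpeg1 at -1.46, Fcer1g at -1.32 and Fcgr1 at -1.22. Other risers with the smaller response in KO were Serpina10 (-2.70), Socs3 (-2.48), Il1f6 (-2.46), Tmsb10 (-1.73), Cd52 (-1.69) and Ifi27l2a (-1.35).

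The KO response was the higher for Pvalb (3.43), Kl (1.59), Mettl7a2 (1.07), Alb (1.01), Akr1c14 (0.85) and C8a (0.68), which were lower in WT_IR by more. It was also higher for Rrm2 (0.86) and C4b (0.79), which rose in KO_IR; both had lower levels in KO than in WT.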

How the results depend on the processing

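All 160 called genes kept their sign under each alternative that tested them, but their calls depended on single libraries. Leaving out 1 library at a time gave 0 to 104 genes higher and 0 to 9 lower in KO_IR, and 809 to 1463 higher and 451 to 852 lower for the interaction. KO_IR and KO libraries fitted alone gave 0 and 0, with 1806 genes at an unadjusted p under 0.05 and a smallest adjusted p of 0.124. Without both KO replicate 2 and KO_IR replicate 1 the counts were 20 and 3, and 320 and 177 for the interaction.

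With no filter on low values 23 genes were higher and, for the interaction, 968; a minimum of 5 FPKM left 6 lower, and 576 lower for the interaction. By voom 284 were higher and 30 lower. A 2-fold minimum left 85 and 7, and 661 and 489 for the interaction. On the TPM scale the interaction counts were 755 higher and 4066 lower, so that 15.7% were higher, against 59.0% as deposited. Ehmt2, not called under any setting, changed by -0.022 as deposited, 0.044 on the TPM scale and -0.067 to 0.022 with 1 library left out. The cause of these shifts was not tested. Among genes named singly, 713 refits lost the call, 35 gained it and 2048 kept their side of the threshold.

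With the replicate number as a block, 158 genes were higher and 17 lower (127 of the 160 among them), and 1472 and 1001 for the interaction. Same-numbered KO_IR and KO libraries deviated together with r = 0.164 across genes, where other pairs of groups had -0.122 to 0.113. For some lists the median of replicate 1 minus replicate 2 went the same way in both groups, as for antigen presentation (-0.37 in KO_IR, -0.45 in KO). For others it did not, as for the distal convoluted tubule (-0.35 in KO_IR, 0.22 in KO). The labels give no pairing, and whether these libraries share mice was not tested.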

Other observations

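Of the 160 called genes 11 are not protein coding, and 5 of them were not called in the same direction in WT. Gm22806, a snoRNA gene, had 4.77 and 5.18 FPKM in KO_IR and 2.52 and 1.83 FPKM in KO, beside 2.08 and 1.81 FPKM in WT_IR and 4.54 and 4.76 FPKM in WT, so that its changes of 0.92 in KO and -0.94 in WT were opposite. Rpl30-ps10, a processed pseudogene of a ribosomal protein, had 9.86 and 13.7 FPKM in KO_IR and 36.8 and 31.8 FPKM in KO, beside 42.4 and 46.4 FPKM in WT_IR and 24.2 and 34.9 FPKM in WT. Reads of its parent gene can fall on such a copy, so its values are uncertain. Mir3100 had 4.54 and 1.97 FPKM in KO_IR and was listed at 0 in both KO libraries. The shorter a gene, the more FPKM each fragment adds, so few fragments can make such values on snoRNA and miRNA genes. RNA was also selected on poly-T beads, so the values of Gm22806, Mir5107 and Mir3100 are uncertain.

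Gdf15, a stress-induced cytokine, had 63.59 and 11.04 FPKM in KO_IR and 5.00 and 7.57 FPKM in KO, so that KO_IR replicate 1 stood apart for it as for the immediate early genes; this was seen after the values were known. Ren1, which encodes renin, had 44.2 and 45.5 FPKM in KO_IR and 65.1 and 127 FPKM in KO (-1.01, adjusted p = 0.267 by limma), with KO replicate 2 the higher of its group.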
